A study of Rattus norvegicus with 3 samples.

Results

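The genes described here handle organic osmolytes, urea and sugar alcohols in the rat kidney: the aldose reductase gene Akr1b1 and its relatives Akr1b8 and Akr1b10, the osmolyte transporter genes Slc5a3, Slc6a6 and Slc6a12, the transcription factor gene Nfat5, and the urea transporter genes Slc14a1 and Slc14a2. They were chosen by their gene symbols, as 9 of the 20667 genes that the array table names singly, with earlier results of these arrays known. Akr1b10 was included because its signal was higher than control at one time point and lower at the other, so that pattern is a description and not a finding. Kidney RNA came from 3 male rats, 1 control rat and 1 rat each at day 2 and day 5 of ethylene glycol (EG) at 8 g/kg by mouth, with 1 Clariom S array per rat. EG, used as antifreeze, is converted in the body to oxalate, which forms calcium oxalate crystals in the tubule. Whether the dose was single or repeated cannot be told from the labels, and the sources used here give no strain, age or vehicle. With 1 rat per group no test is possible, no p-value is given, and variation between rats cannot be told apart from treatment or time.

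Cells of the renal medulla live in fluid made hypertonic by salt and urea, and balance it by accumulating sorbitol, myo-inositol, betaine, taurine and glycerophosphocholine. Aldose reductase makes sorbitol from glucose. Of the other solutes, those that enter through sodium-coupled carriers include myo-inositol (Slc5a3), betaine (Slc6a12) and taurine (Slc6a6). NFAT5, also called TonEBP, switches on these genes under hypertonic stress by binding the tonicity-responsive enhancer (TonE) in their DNA. Urea itself crosses membranes through UT-B, the product of Slc14a1 in the descending vasa recta and in red blood cells, and through the UT-A proteins made from Slc14a2 in the inner medullary collecting duct and thin descending limb.

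Promoter windows from RefSeq (build GRCr8, 250 bases before to 50 after the annotated start) are shown for the 3 members that were at least 2-fold higher than control at EG day 2, because TonE is the element through which NFAT5 acts. Capitals mark matches on either strand to the TonE core TGGAAA, read here as TTTCCA on the opposite strand, and to the antioxidant response element core TGACNNNGC, the element bound by NRF2.
Slc6a6, chr4:125752252-125752551, plus strand: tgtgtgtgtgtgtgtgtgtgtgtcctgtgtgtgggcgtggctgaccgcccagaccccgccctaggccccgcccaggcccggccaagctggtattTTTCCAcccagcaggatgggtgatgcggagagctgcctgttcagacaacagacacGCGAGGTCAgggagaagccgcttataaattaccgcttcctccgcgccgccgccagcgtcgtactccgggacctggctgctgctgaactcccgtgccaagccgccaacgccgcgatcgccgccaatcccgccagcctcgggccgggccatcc
Akr1b8, chr4:63964171-63964470, plus strand: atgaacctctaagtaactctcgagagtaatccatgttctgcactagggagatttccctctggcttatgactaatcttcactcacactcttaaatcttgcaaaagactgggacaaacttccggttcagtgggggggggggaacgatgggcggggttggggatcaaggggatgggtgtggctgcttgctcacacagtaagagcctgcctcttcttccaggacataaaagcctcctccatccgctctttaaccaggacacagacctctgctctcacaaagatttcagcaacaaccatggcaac
Akr1b10, chr4:64005382-64005681, plus strand: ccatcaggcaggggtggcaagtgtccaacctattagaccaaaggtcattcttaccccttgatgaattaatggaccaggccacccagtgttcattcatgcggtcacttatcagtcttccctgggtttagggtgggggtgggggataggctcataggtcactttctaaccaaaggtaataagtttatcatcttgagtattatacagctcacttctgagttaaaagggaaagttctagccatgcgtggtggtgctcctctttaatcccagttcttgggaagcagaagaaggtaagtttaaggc
Of the 9 members 7 had a window in the table, with 8 windows in all. Akr1b1 and Nfat5 had no window there. The Slc6a6 window was the 1 window of the 8 that held the TonE core. The core lay 151 to 156 bases before the annotated start of Slc6a6 and extended into a full match to the TonE consensus. Across 33469 rat promoter windows 22.7% held the core and 5.98% the full consensus. The antioxidant core also occurred among the members' windows in Slc6a6 alone, 93 to 101 bases before the start, and in 12.1% of all windows, and the motifs did not overlap. These motifs were searched with the array values known. A match describes letters in a window, and the absence of one says nothing of enhancers elsewhere.

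The deposited signals are log2 values, 1 per transcript cluster, which is the set of probes for 1 transcribed locus. A value under 5.33, the 95th percentile of 1101 olfactory receptor genes taken as silent in kidney, was treated as background, and 13573 genes (65.7%) reached that level on at least 1 array. Of the 9 members 8 reached it, 7 of them on all 3 arrays, while Akr1b8 passed only through the EG arrays and so had to be higher there. A gene is called different where it was at least 2-fold (1 log2 unit) apart on the deposited scale. That scale reaches 19.93, above the 16 log2 units of a scanner's range, so a fold may be stretched or compressed against RNA. In bulk kidney RNA, fewer cells of a type and less RNA per cell cannot be told apart. The medians of the arrays lay between 6.21 and 6.3 log2.

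At EG day 2 the taurine transporter gene Slc6a6 and the reductase genes Akr1b8 and Akr1b10 were higher than in the control, and no member was 2-fold lower. At EG day 5 Akr1b1, Slc14a1 and Slc6a6 were higher and Akr1b10 was lower. The count at least 2-fold higher was 3 of the 8 measured members at EG day 2, where 4.45% of measured genes were higher and 2.45% lower by that much. At EG day 5 the counts were 3 higher and 1 lower, against 4.75% and 3.62% of measured genes. Because these values were in view when the members were chosen, nothing is read from the excess. Both comparisons share the control array.

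**Figure D1:**
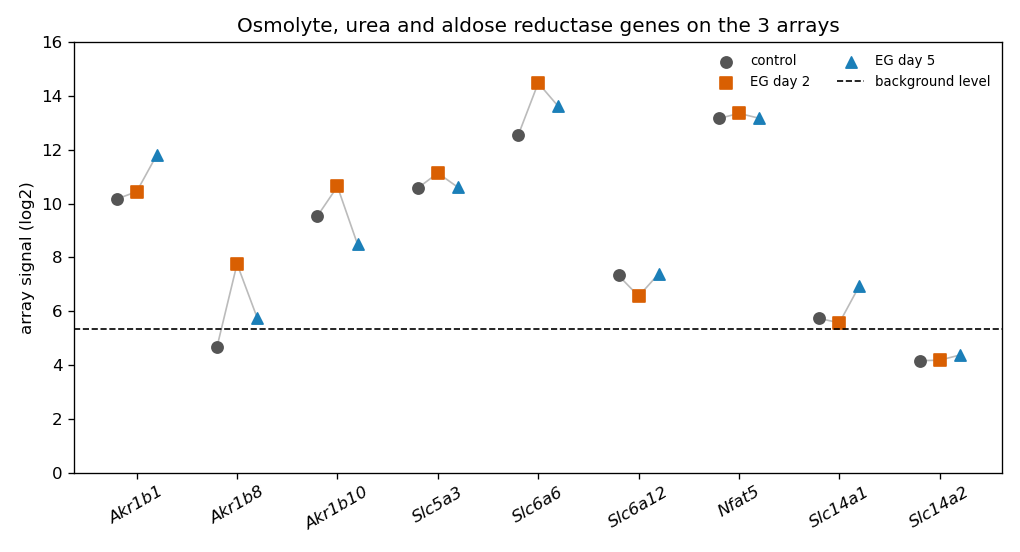
Array signal (log2) of the 9 members, with 1 point per array for the control rat (circle), EG day 2 (square) and EG day 5 (triangle), and the background level of 5.33 as a dashed line. Slc6a6, Akr1b8 and Akr1b10 peak at EG day 2, Akr1b1 and Slc14a1 at EG day 5, and Slc14a2 lies under the background level on every array.

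Akr1b1 encodes aldose reductase, the enzyme that forms sorbitol. Its signal was 10.17 log2 in the control, 10.45 at EG day 2 and 11.81 at EG day 5. The control and EG day 2 arrays lay close together and the EG day 5 array stood above both, by 1.64 (3.12-fold) over control and by 1.36 (2.57-fold) over EG day 2. Of 13573 measured genes 103 (0.759%) were at least as much higher than control at EG day 5. At EG day 2 the difference from control was 0.28, which 33% of measured genes reached or passed.

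Akr1b10 and Akr1b8 encode close relatives of aldose reductase whose human and mouse counterparts reduce reactive aldehydes. Akr1b10 was at 9.54 log2 in the control, 10.64 at EG day 2 and 8.49 at EG day 5. It was thus 1.1 log2 units (2.14-fold) over control at EG day 2 and 1.05 (2.07-fold) under control at EG day 5. Under quantile normalization the EG day 2 difference was 0.94 and under cyclic loess 0.96, both short of 2-fold, whereas the EG day 5 difference stayed past it under every scaling tried. The EG day 5 against EG day 2 difference was -2.15 (4.44-fold), a size that 24 of 13573 genes (0.177%) reached. Opposite differences from control, for which Akr1b10 was chosen, make it larger than either, so nothing is read from its rank.

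Akr1b8 had a control signal of 4.67 log2, under the background level, and signals of 7.76 on the EG day 2 array and of 5.76 on the EG day 5 array. The EG day 2 array was the high one, at least 5.39-fold over control, and the EG day 5 array lay just above background, at least 1.35-fold over control. With a background level of 3.73 (the olfactory receptor median), or with none, the EG day 5 difference was 1.09 and passed 2-fold. Between the EG arrays, both over background, Akr1b8 was 2.0 log2 units (4.0-fold) lower at EG day 5. Both Akr1b8 and Akr1b10 were therefore high at EG day 2 relative to EG day 5, while Akr1b1 had the opposite order.

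In the RefSeq gene table of GRCr8, Akr1b1, Akr1b8, Akr1b10 and Akr1b7 follow each other on chromosome 4 with no other protein-coding gene between them. Akr1b7, the remaining gene of that row, was under background on all arrays, at 4.54, 4.51 and 3.97 log2 in the control, EG day 2 and EG day 5. Probes of such relatives can pick up each other's transcripts, so the signal of a single member is uncertain. The 3 measured genes of the row had 3 different orders of the arrays.

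Among the osmolyte carriers, Slc6a6 had the largest difference. The signal of this taurine transporter gene was 12.54 log2 in the control, 14.49 at EG day 2 and 13.62 at EG day 5. Both EG arrays stood above the control, by 1.95 (3.86-fold) on day 2 and 1.08 (2.11-fold) on day 5. At EG day 2 56 of 13573 measured genes (0.413%) were at least as much higher, and at EG day 5 3.76% were. The EG day 5 value was 0.99 after centring each array on its median, just short of 2-fold.

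Slc5a3, the myo-inositol carrier gene, was at 10.58 log2 in the control, 11.14 at EG day 2 and 10.61 at EG day 5. Its largest difference, 0.56 at EG day 2, was one that 16.3% of measured genes reached. Slc6a12, the betaine carrier gene, was at 7.33, 6.56 and 7.39 log2 in the same order. Here the EG day 2 array was the low one, at -0.77 (1.71-fold lower), and the EG day 5 array lay next to the control. The 3 carriers did not share a pattern: at EG day 2 the taurine carrier was higher, the inositol carrier was higher by less than 2-fold and the betaine carrier was lower by less than 2-fold.

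Nfat5, the regulator of this response, is known to be controlled largely through its protein, so a transcript level is an incomplete measure of it. The brighter of its 2 clusters was at 13.17 log2 in the control, 13.36 at EG day 2 and 13.18 at EG day 5. The dimmer cluster was at 11.97, 12.31 and 12.63. Neither cluster was 2-fold apart between any arrays, and they differ on EG day 5, at 0.01 and 0.66 over control.

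**Figure D2:**
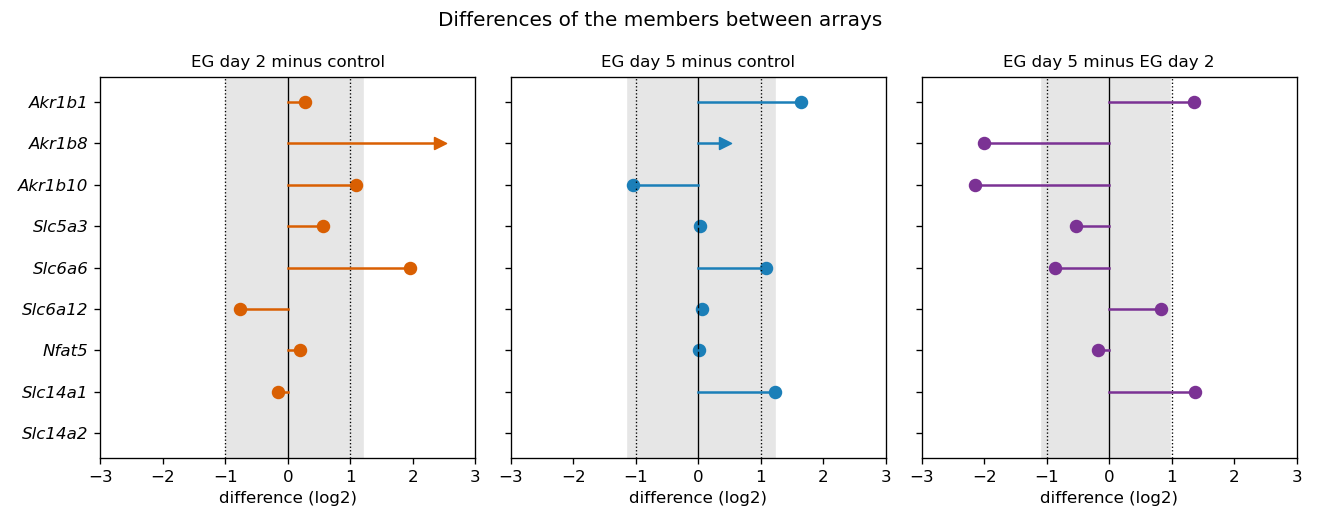
Log2 differences of the members between arrays, with 1 panel per comparison, an arrowhead for a lower bound (1 side under background), dotted lines at 2-fold and grey for the middle 95% of all measured genes. Slc6a6 and Akr1b8 lie beyond the grey range at EG day 2 and Akr1b1 at EG day 5, whereas Slc5a3 and Nfat5 stay within it in all panels.

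The urea transporter genes, which neighbour each other on chromosome 18 in GRCr8 with no protein-coding gene between them, were both dim. Slc14a1 was at 5.73 log2 in the control, 5.57 at EG day 2 and 6.95 at EG day 5. The first 2 of these lie just over background and the EG day 5 array stood above them, by 1.22 (2.33-fold) over control and 1.38 (2.6-fold) over EG day 2. Against control 2.56% of measured genes were at least as much higher. With the background set at the median of all values (6.4), the EG day 5 difference was 0.55 and no longer 2-fold. Slc14a2 was at 4.16, 4.18 and 4.37 log2, under background throughout, so no fold is given for it.

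Between the EG arrays, 2 of the 8 measured members were at least 2-fold higher at EG day 5 (Akr1b1 and Slc14a1), where 2.21% of measured genes were. Another 2 were at least 2-fold lower (Akr1b8 and Akr1b10), where 3.33% of measured genes were. Slc6a6 was lower by 0.87 and Slc6a12 higher by 0.83, both within 2-fold. Members therefore differed between the EG arrays in both directions.

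Cell type markers differed between the same arrays. Of 9 inner medulla and collecting duct markers, 0 were at least 2-fold apart from control at EG day 2 and 3 were higher at EG day 5: the transcription factor gene Gata3 (1.75), the sodium pump regulator gene Fxyd4 (1.25) and the vasopressin receptor gene Avpr2 (1.23). Their mean signal was 9.53 log2 in the control, 9.74 at EG day 2 and 10.09 at EG day 5. Their median difference at EG day 5 was 0.27, against 0.01 over all measured genes. The water channel genes Aqp2 (0.34) and Aqp4 (-0.18) of the same list were within 2-fold at EG day 5. These 3 markers were higher on the array where Akr1b1 and Slc14a1 were higher, and their part in those differences was not tested. Proximal tubule markers were 2-fold lower for 7 of 11 genes on day 2 and 8 on day 5. Over all measured genes, 2.45% were 2-fold lower on day 2 and 3.62% on day 5. The day 2 count of these markers was 5 under quantile normalization and under cyclic loess. Their mean signals were 16.24, 15.31 and 14.82 log2 in the control, EG day 2 and EG day 5.

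Slc14a1 is also a gene of red blood cells and vasa recta endothelium. Of 9 red cell markers 4 were measured, and the globin genes Hbb and Hba-a1 were at least 2-fold lower on both EG arrays (-1.81 and -1.6 on day 2, -3.24 and -2.44 on day 5). The other 2, Slc4a1 (-0.45 and 0.0) and Alas2 (-0.24 and -0.39), were within 2-fold, and Epb42 and Rhag were under background. The mean was 11.18 log2 in the control, 10.15 on day 2 and 9.66 on day 5 over the 4 measured. The 6 measured of 8 endothelial markers were all within 2-fold of control, at means of 10.82, 10.5 and 10.79 log2. Of the tubular injury list, 6 of 7 measured genes were 2-fold higher at EG day 2 and 7 at EG day 5, led by Havcr1, which encodes KIM-1 (12.47 and 8.44). Macrophage markers were 2-fold higher for 6 of 11 genes on day 2 and 7 on day 5, at means of 7.44, 8.29 and 8.7 log2. Their day 2 count was 5 under quantile normalization and under cyclic loess, and 4 with the background at 6.4. Over all measured genes, 4.45% were 2-fold higher on day 2 and 4.75% on day 5. Fibroblast markers were 2-fold higher for 2 of 6 measured genes on day 2 and 6 on day 5, at means of 11.06, 11.81 and 12.8 log2. Of 7 urothelium markers the 6 that were matched (Upk1a, Upk1b, Upk2, Upk3a, Upk3b and Krt20) lay under background on all arrays. The liver list had 5 of 8 members measured, with 0 at least 2-fold apart at EG day 2 and 1, Alb (1.73), higher at EG day 5. The part of these cell types in the members' differences was not tested.

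Among other genes known to respond to hypertonicity, those at least 2-fold apart from control did not share 1 direction. At EG day 2, 2 of the 11 measured genes were 2-fold higher and 1 was lower, and at EG day 5 0 were higher and 2 lower. List medians were 0.41 and 0.09. Over all measured genes the medians were 0.05 and 0.01. Cryab, a small heat shock protein gene, was at 12.91 log2 in the control, 15.15 at EG day 2 and 13 at EG day 5. Sgk1, a kinase gene induced by osmotic stress and by corticosteroids, was at 14.52, 15.86 and 12.89 log2, high at EG day 2 and low at EG day 5 like Akr1b10. Ptgs2, the inducible cyclooxygenase gene, was at 9.76, 7.28 and 8.25 log2 and so lower on both EG arrays. Of 9 kinases and partners known to act on Nfat5, 0 were 2-fold apart at EG day 2 and 1 at EG day 5, the DNA damage kinase gene Atm (1.11 higher), with list medians of 0.5 and 0.44.

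Genes for the making, breakdown and other transport of the same solutes were mostly within 2-fold. At EG day 2, 0 of these 16 genes were 2-fold higher and 2 were lower, and at EG day 5 1 was higher and 3 were lower. List medians were -0.01 and 0.01. The 2 at EG day 2, named after their values were seen, were Miox, the inositol-degrading oxygenase gene of the proximal tubule (-1.07), and Khk, the fructokinase gene (-1.0). Under quantile normalization and under cyclic loess 1 in place of 2 was lower, and with the lower background or none 2 in place of 1 were higher at EG day 5. Sord, the sorbitol dehydrogenase gene that acts downstream of aldose reductase, was at 15.51 log2 in the control, 14.59 at EG day 2 and 14.14 at EG day 5. Its difference at EG day 5 was -1.37, where Akr1b1 was 1.64. Slc6a13, a GABA and taurine carrier gene, was at -1.54 at EG day 5 and Slc5a11, a second inositol carrier gene, at -1.35, while Impa2, an inositol monophosphatase gene, was at 1.11. Proximal tubule markers, with a median of -1.4, were lower on the same array.

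Of 16 other aldo-keto reductases on the list 14 were matched and 10 measured, and none of the 10 was at least 2-fold apart at EG day 2, whereas 1 (Akr1c1, -1.01) was lower under quantile normalization and cyclic loess. At EG day 5 2 were lower and 0 higher (1 with the lower background or none), and the list medians were -0.33 and -0.39. Akr1c1, which in other species acts on steroids, was at 12.75 log2 in the control, 11.81 at EG day 2 and 10.78 at EG day 5. Akr7a3, an aflatoxin aldehyde reductase gene, was at 17.04, 17.46 and 15.52 log2. Akr1b1 was thus higher on an array where 2 relatives outside the Akr1b row were lower.

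Urine concentration and urea handling genes were also mostly within 2-fold, with 1 of 12 higher at each time and 0 lower. The gene at EG day 2 was Arg2, the mitochondrial arginase that releases urea from arginine, at 9.38 log2 in the control, 10.74 at EG day 2 and 8.86 at EG day 5. The gene at EG day 5 was Avpr2, at 6.27, 6.1 and 7.5 log2, the same order of arrays as Slc14a1. Avpr2 is also among the collecting duct markers above, so both lists count the same value. List medians were -0.15 and -0.19.

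**Figure D3:**
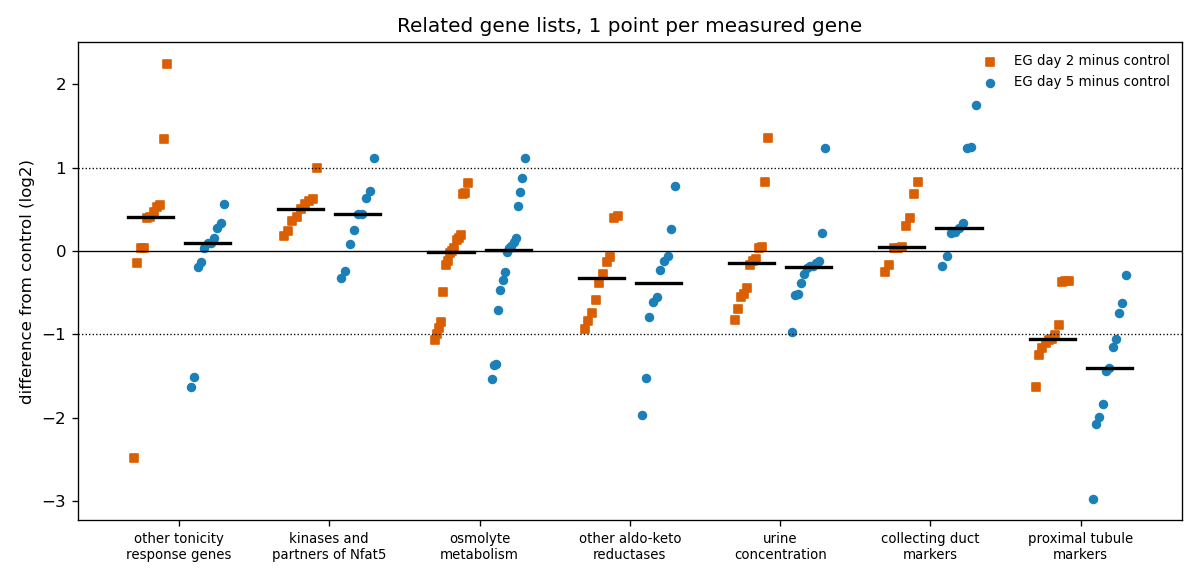
Difference from control (log2) of each measured gene in 7 related lists at EG day 2 (squares) and EG day 5 (circles), with black bars for list medians and dotted lines at 2-fold. The proximal tubule markers lie low at both times, most genes of the other lists lie within 2-fold of control, and 3 collecting duct markers lie above 2-fold at EG day 5.

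Few genes were 2-fold apart from control in both directions. Akr1b10 was chosen for that pattern, so its place among them is a description and not a finding. Under quantile normalization (0.94) and cyclic loess (0.96) its EG day 2 difference was short of 2-fold. Among 13573 measured genes, 4 were at least 2-fold over control at EG day 2 and at least 2-fold under it at EG day 5: Akr1b10, Sgk1, Rfk (the riboflavin kinase gene) and LOC100910708. Rfk, named after its values were seen, was at 12.13 log2 in the control, 13.45 at EG day 2 and 10.98 at EG day 5. The reverse pattern was seen in 3 genes, Dbp, Islr and Rsad2, also named after their values were seen. By distance over both differences from control, the 5 genes nearest to Akr1b10 among 6168 of like signal were LOC100910708 (0.15 log2 units away), Arl4a (0.2), Srxn1 (0.34), Spns2 (0.38) and Rbl1 (0.39). Srxn1, which encodes sulfiredoxin, an antioxidant enzyme, was at 7.74 log2 in the control, 9.05 at EG day 2 and 6.96 at EG day 5.

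The 5 genes nearest to Akr1b1 among 4614 of like signal were Gata3 (0.11 log2 units away), Col1a2 (0.16), Dcdc2 (0.19), Lbh (0.21) and Cd9 (0.27). Gata3, a transcription factor gene of the collecting duct, was at 9.26 log2 in the control, 9.56 at EG day 2 and 11.01 at EG day 5. Col1a2, a collagen gene of fibroblasts, was at 10.92, 11.05 and 12.52 log2. The likeness rests on 3 arrays that all these genes share.

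**Figure D4:**
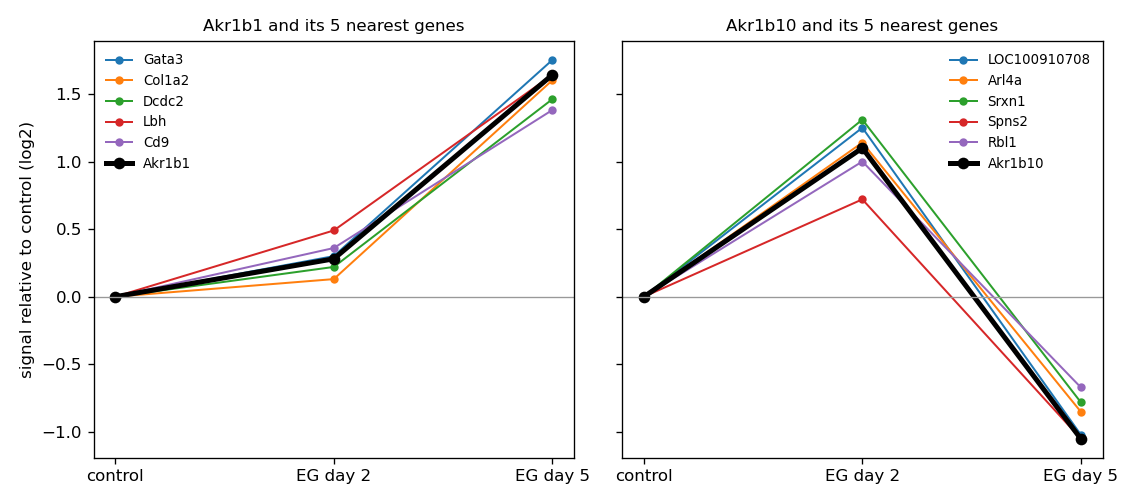
Signal relative to the control array (log2) on the 3 arrays for Akr1b1 (left, black) and Akr1b10 (right, black) and the 5 genes nearest to each by distance over both differences from control. Akr1b1 and its neighbours are high at EG day 5. Akr1b10 and its neighbours lie over control at EG day 2 and under it at EG day 5. The shared shapes follow from how the neighbours were chosen.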

How the data were processed

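Signals were measured in kidney RNA of 3 male rats on Clariom S rat arrays, 1 array per group. Per the file headers, the authors summarised probes with Transcriptome Analysis Console into 1 log2 value per transcript cluster, with an rn6 annotation and no filter. The sources used here name neither the background correction nor the normalization. Both deposited tables hold identical log2 values (69564 of 69564).

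Of 23188 clusters, 21502 named 1 gene. The brightest cluster stood for a gene. Values under the background level (5.33) were set to it. A difference with 1 side under it is a lower bound, and where both sides are under it no fold is given and the gene counts as 0 in a list median. The calling of 2-fold differences was tested on simulated data without noise. The changed genes there lay well above background, so calls near background were not tried. With 1 array per group no test was run, and the number of arrays limits the precision.

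The members and the 14 other gene lists were chosen with earlier results of these data known. Named genes were all members, up to 4 genes per list with the largest differences from control past 2-fold, and the 5 genes nearest to Akr1b1 and to Akr1b10 within 2 log2 units of mean signal. List genes named outside this rule show the spread of their list (Aqp2, Aqp4, Slc4a1, Alas2), a small count (Miox, Khk), markers under background (Epb42, Rhag and the urothelium genes) or a place beside a member (Akr1b7). Of the listed genes, those on clusters naming several genes were left out. Alternatives were 3 other background levels, 3 scalings, the mean of a gene's clusters, the second deposited table and a 1.5-fold call. Python 3.11.15, R 4.3.3 and limma 3.58.1 (cyclic loess) were used. Promoter windows are those of RefSeq for GRCr8, which is not the build of the array annotation.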

Additional observations from a re-analysis of the deposited data

Results flagged for a closer look

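Among the members and the list genes named for the size of their difference, 10 had differences from control of opposite sign at the 2 time points. Of these, Akr1b10 was a member known for that pattern beforehand. The difference between the time points was not tested, since each comes from 1 rat. Akr1b10 differed from control by 1.1 on day 2 and by -1.05 on day 5, so that EG day 5 lay at -2.15 against EG day 2 on the log2 scale. Sgk1 was at 1.34 and -1.63, with -2.97 between the EG arrays. Slc14a1 was at -0.16 and 1.22, with 1.38 between the EG arrays, and 2 of its 3 values lay just over background. Slc6a12 was at -0.77 and 0.06, with 0.83 between the EG arrays, and its EG day 5 sign turned under quantile normalization (-0.05), median centring (-0.03) and cyclic loess (-0.04). The collecting duct genes Fxyd4 and Avpr2 stood at 1.5 and 1.4 between the EG arrays, and the macrophage gene Adgre1 at 2.13, each slightly under control at EG day 2. Akr7a3 stood at -1.94 and Arg2 at -1.88 between the EG arrays, both over control at EG day 2 and under it at EG day 5. Slc5a11 stood at -1.39, and its EG day 2 difference from control (0.04) turned sign under quantile normalization (-0.11), median centring (-0.01) and cyclic loess (-0.1).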

How the results depend on the processing

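Of 193 member differences recomputed under the alternatives, 184 moved by less than 1.5-fold, and no difference past 2-fold changed sign. Many of the 193 could hardly move, so the 184 is not a count of independent checks. The second deposited table holds the same values, and Nfat5 is the only member with more than 1 cluster. A change of background level leaves signals above it as they were. The 2-fold call changed in 7 of the 193, with 5 lost and 2 gained, as given beside Akr1b10, Akr1b8, Slc6a6 and Slc14a1. Akr1b8 at EG day 2 moved from 2.43 to 1.36 with the level at 6.4 (the median over all genes) and to 3.09 with the lower background or none. Slc14a1 between the EG arrays was 0.55 with that higher background, and the count of members 2-fold higher there was 1 in place of 2. With a 1.5-fold call, 1 member (Slc6a12) in place of 0 was lower at EG day 2. The other counts of members stayed within 1.5 times. In 7 cases a difference within 2-fold changed sign, in Nfat5, Slc5a3 and Slc6a12. The dimmer Nfat5 cluster, chosen after seeing the data, gave 0.32 between the EG arrays against -0.18. The higher background leaves fewer genes measured, 11065 in place of 13573. The cause of the other changes was not tested. Centring moved genes 2-fold lower at EG day 5 from 491 to 649, and genes higher from 645 to 494. No paired analysis was possible because each group holds 1 array. No replicate could be left out for the same reason.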
